A study of Mus musculus with 6 samples.

Results

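The miRNAs described here are 7 mature miRNAs best known from brain and from hormone-secreting cells: mmu-miR-124-3p, mmu-miR-9-5p, mmu-miR-9-3p, mmu-miR-7a-5p, mmu-miR-7b-5p, mmu-miR-375-3p and mmu-miR-128-3p. They were chosen by name, and all 7 were found among the 1300 miRNAs of the deposited table. Small RNA was sequenced from ovaries of female C57BL/6J mice in 6 libraries, and the comparison asks how ovarian miRNAs differ after low-pressure hypoxia. The 3 normal-pressure libraries came from mice kept at the local altitude (1500 m by title, 1588 m by design text), at 83.56 kPa and an oxygen pressure of 17.8 kPa. The 3 hypobaric libraries came from mice kept at 43.12 kPa and 8.1 kPa oxygen, a simulated 6500 m by title but 5000 m by description. Both groups had received levonorgestrel and ethinylestradiol by gavage to synchronize their cycles, with doses (0.1 and 0.02 mg/kg) given for the hypobaric group alone. The mice were 8 weeks old by the design text and 6 to 8 weeks by the descriptions. Exposure lasted 15 days by the design text, but 15, 16 and 17 days by library number in the descriptions, and the dark phase is given as 12, 13 and 14 h for the normal-pressure libraries and 12 h for the hypobaric ones. Each group comprised 15 mice, and no label tells whether single or pooled ovaries went into a library, so the p-values reflect the variation among these 6 libraries, possibly technical.

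A miRNA is cut from a hairpin precursor as a short duplex, and 1 strand, named 5p or 3p by its arm of the hairpin, is loaded into an Argonaute protein. It then recognizes target mRNAs mainly through its seed, the bases next to its first base, and lowers their translation and stability. miR-124 is the characteristic miRNA of neurons and represses transcripts of other cell types, and miR-9 acts in neural progenitors, where both of its arms are known to be active. miR-7a and miR-375 are abundant in pancreatic islets and the pituitary. miR-375 limits insulin secretion, and in mouse the miR-7a gene Mir7-2 is needed for normal gonadotropin output and fertility. miR-128 is abundant in brain, where it restrains neuronal excitability.

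Mature sequences from RefSeq (GRCm38.p6) were matched by name for 5 of the 7, and they are shown because their shared letters decide which names can be told apart. Capitals mark the seed, bases 2 to 8 from the 5′ end.
mmu-miR-7a-5p: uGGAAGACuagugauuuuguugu
mmu-miR-7b-5p: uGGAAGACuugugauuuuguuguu
mmu-miR-9-5p: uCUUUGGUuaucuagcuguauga
mmu-miR-9-3p: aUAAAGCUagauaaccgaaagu
mmu-miR-128-3p: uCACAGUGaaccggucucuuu
The miR-7 pair shares the seed GGAAGAC. Over the first 23 bases these sequences differ by 1 substitution, A10U, with positions counted from 1 at the 5′ end of miR-7a-5p. No other miRNA among the 867 rows with a RefSeq sequence carried the seed of miR-7, and none carried that of miR-9-5p, miR-9-3p or miR-128-3p.

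Several members come from more than 1 gene, and reads of the shared mature strand cannot be traced to a copy. In GENCODE vM21 on GRCm38, miR-7a-5p has precursors in an intron of Hnrnpk on chromosome 13 (58392779 to 58392886, minus strand) and outside other genes on chromosome 7 (78888277 to 78888373, plus strand). miR-7b has a single precursor, outside other genes on chromosome 17 (56242988 to 56243098, plus strand), and so does miR-375, on chromosome 1 (74900658 to 74900721, minus strand). The miR-128 precursors lie in introns of R3hdm1 on chromosome 1 (128202361 to 128202430, plus strand) and Arpp21 on chromosome 9 (112118636 to 112118711, minus strand). miR-9 and miR-124 each have 3 precursors, all on the plus strand. Those of miR-9 lie on chromosome 3 (88215598 to 88215686) in an intron of the lincRNA Gm3764, on chromosome 13 (83738814 to 83738885) in an exon of C130071C03Rik and on chromosome 7 (79505264 to 79505353) in an intron of Mir9-3hg. Those of miR-124 lie in exons of lincRNA genes on chromosomes 14 (64590657 to 64590741), 3 (17795662 to 17795770) and 2 (180894040 to 180894107).

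The libraries held 20800777 to 22559146 reads as implied by the deposited values, of which 6852198 to 8701696 were assigned to miRNAs. Levels are in RPM, reads per 1000000 of that total, and 1 read was worth 0.0443 to 0.0481 RPM. On the second principal component, with 28.1% of the variance, normal-pressure library 2 and hypobaric library 3 (-6.78 and -9.11) stood apart from the other 4 libraries (1.77 to 5.83), so values without that pair are given where a result rests on them. The gonad-enriched miR-202-5p was at 933 to 2955 RPM in the 6 libraries. Of the marker lists, summed levels did not overlap between groups for gonad (2 miRNAs, 998 to 1349 RPM at normal pressure and 2191 to 3462 RPM in the hypobaric group), red cell (5 miRNAs, 720 to 1572 and 9442 to 15060 RPM), leukocyte (3 miRNAs, 570 to 787 and 917 to 1068 RPM) and ciliated epithelium (3 miRNAs, 498 to 531 and 191 to 361 RPM). They overlapped for epithelium (5 miRNAs, 2496 to 3997 and 3193 to 3699 RPM), striated muscle (3 miRNAs, 249 to 328 and 273 to 281 RPM) and the hepatocyte miR-122-5p (0.222 to 1.30 and 0.763 to 1.51 RPM). Single miRNAs carried several of these sums: miR-451a that of red cells, miR-150-5p that of leukocytes and miR-449a-5p that of ciliated epithelium. The groups overlapped for the leukocyte miR-223-3p and miR-142a-3p (log2 changes -0.33 and 0.12) and the ciliated-cell miR-34b-5p and miR-34c-5p (0.10 and 0.09). Of the red-cell markers, miR-451a, miR-144-3p, miR-144-5p and miR-486a-5p were higher in every hypobaric library, and miR-486b-5p overlapped. miR-486a-5p was above miR-486b-5p in normal-pressure library 3 (30.8 and 3.99 RPM) and below it in hypobaric library 1 (37.3 and 97.3 RPM). How reads were split between these names was not tested, so the overlap of miR-486b-5p does not speak against the red-cell shift. What part the shifts of the marker lists have in the values below was not tested. In whole ovary, fewer cells of a type and less miRNA per cell cannot be told apart.

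The neural label refers to where these miRNAs are best known, not to cells found in these ovaries. Apart from miR-137-3p, the neuron and endocrine markers below are members, so their sums restate member levels. They do not measure cell content. The 3 neuron markers, miR-124-3p, miR-9-5p and miR-137-3p, summed to 6.83 to 11.3 RPM at normal pressure and 8.45 to 11.6 RPM in the hypobaric group. Of these miR-137-3p had 1 or 2 reads in every library. These 3 do not stand for all brain miRNAs: in the list given below, miR-218-5p had a mean of 750.5 RPM and miR-153-3p one of 0.782 RPM. The endocrine markers miR-375-3p and miR-7a-5p summed to 457 to 528 and 308 to 492 RPM. The 7 members together held 0.104% to 0.173% of the miRNA reads of a library, and miR-375-3p made up 66.9% to 78.2% of their summed RPM.

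**Figure D1:**
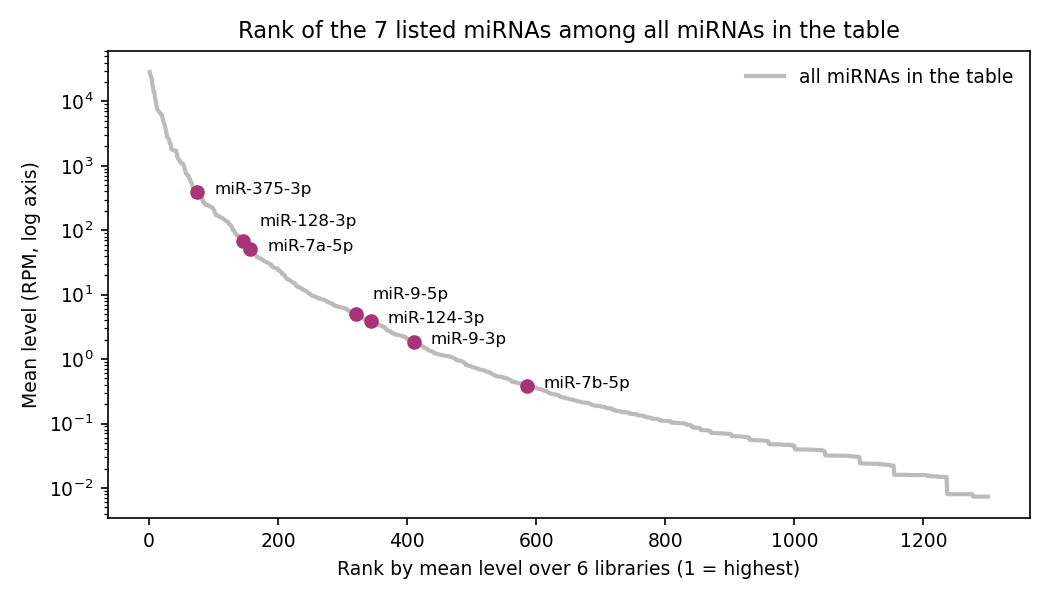
Mean level over 6 libraries (RPM, log axis) of each miRNA in the table against its rank, with the 7 listed miRNAs as points. miR-375-3p stands at rank 75 of 1300, miR-128-3p and miR-7a-5p at 145 and 157, miR-9-5p, miR-124-3p and miR-9-3p at 320, 344 and 411, and miR-7b-5p at 586.

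The islet and pituitary miRNA miR-375-3p was the most abundant member, at rank 75 of all rows by mean level. In normal-pressure libraries 1, 2 and 3 its level was 409, 383 and 474 RPM, and in hypobaric libraries 1, 2 and 3 it was 447, 264 and 371 RPM. Hypobaric library 2 was the lowest of the 6, and the groups overlapped. Group means were 422 ± 46.7 and 361 ± 92.1 RPM (SD, n = 3), and the log2 change was -0.25 (SE 0.23, adjusted p = 0.545 by limma). The 95% interval of the change ran from -0.77 to 0.27, or from 0.587-fold to 1.20-fold on the RPM + 1 scale. The size rested on single libraries and on scaling: the log2 change was -0.04 without hypobaric library 2 and -0.46 with scaling to the miRNA total.

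The brain miRNA miR-128-3p came next, at rank 145, with 70.5, 48.0 and 70.4 RPM at normal pressure and 82.7, 75.9 and 63.5 RPM in the hypobaric group. Normal-pressure library 2 was lowest and 2 hypobaric libraries lay above all controls, but the groups overlapped. Group means were 63.0 ± 13.0 and 74.0 ± 9.75 RPM (SD, n = 3), and the log2 change was 0.24 (SE 0.23, adjusted p = 0.567 by limma), with an interval from -0.28 to 0.76. It was 0.06 without normal-pressure library 2 and 0.04 with scaling to the miRNA total. The 5p strands of its precursors, which tell the genes apart, were near the limit of detection. miR-128-1-5p of the R3hdm1 intron had 6 to 9 reads per library, and miR-128-2-5p of the Arpp21 intron had 1 read in normal-pressure library 1 and 0 in the other 5, where 3 reads would be 0.133 to 0.144 RPM. Within a library the 3p strand exceeded the sum of the 5p strands by 155-fold to 266-fold.

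In miR-7a-5p, the main islet and pituitary strand of the miR-7 family, the groups did not overlap. It was at 51.1, 73.7 and 53.8 RPM at normal pressure and at 44.5, 43.6 and 41.0 RPM in the hypobaric group, so that every hypobaric library lay below every control. The hypobaric libraries were close together (43.0 ± 1.79 RPM, SD, n = 3), while normal-pressure library 2 stood above the other controls (59.5 ± 12.3 RPM for the group, SD, n = 3). The log2 change of -0.44 ± 0.21 (SE) did not pass, with an adjusted p of 0.280 by limma (0.0684 before adjustment), and its interval ran from -0.92 to 0.04. Without normal-pressure library 2 the log2 change was -0.28 (limma adjusted p = 0.554), and without the pair set apart on the second component it was -0.25 (0.499). In count tests on the recovered reads the unadjusted p was 0.0256 with edgeR and 0.00680 with DESeq2, and the adjusted p was 0.160 and 0.0516.

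miR-7b-5p, the family member with the same seed from chromosome 17, was the lowest of the 7, with 6 to 11 reads per library. Its level was 0.381, 0.399 and 0.337 RPM at normal pressure and 0.283, 0.381 and 0.518 RPM in the hypobaric group, below the mean of 1 RPM required for testing, and the groups overlapped (0.372 ± 0.0319 and 0.394 ± 0.118 RPM, SD, n = 3). miR-7a-5p exceeded it by 79.2-fold to 185-fold within a library. With a single substitution between these sequences, how reads were split between them by the authors' counting is uncertain, and the level of miR-7b-5p with it.

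The neuronal miR-124-3p was present at a few RPM. It was at 4.91, 3.59 and 2.31 RPM at normal pressure and 3.82, 3.43 and 5.27 RPM in the hypobaric group, from 48 to 112 reads, and the groups overlapped. Group means were 3.60 ± 1.30 and 4.18 ± 0.970 RPM (SD, n = 3), and the log2 change was 0.19 (SE 0.26, adjusted p = 0.683 by limma), with an interval from -0.40 to 0.78. Leaving out normal-pressure library 3, the lowest, turned its direction (-0.03), and scaling to the miRNA total brought it to 0.03.

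Both arms of miR-9 were likewise low, and the groups overlapped in each. Strand handling was not given, so the level of miR-9-5p may depend on its split from miR-9b-3p, described below. miR-9-5p was at 6.34, 3.46 and 4.42 RPM at normal pressure and at 4.58, 5.39 and 6.26 RPM in the hypobaric group. miR-9-3p was at 2.81, 1.37 and 1.06 RPM and at 2.22, 1.76 and 1.98 RPM. Normal-pressure library 1 was the highest of the 6 for both arms. Group means were 4.74 ± 1.46 and 5.41 ± 0.842 RPM for miR-9-5p and 1.75 ± 0.934 and 1.99 ± 0.227 RPM for miR-9-3p (SD, n = 3). The log2 change of miR-9-5p was 0.18 (SE 0.24, adjusted p = 0.675 by limma), with an interval from -0.36 to 0.72. That of miR-9-3p was 0.17 (SE 0.26, adjusted p = 0.729 by limma), with an interval from -0.41 to 0.75. The direction of miR-9-5p turned with quantile scaling (-0.02) and without the pair set apart on the second component (-0.08), and that of miR-9-3p with edgeR and without normal-pressure library 3. With scaling to the miRNA total the changes were 0.01 for miR-9-5p and 0.04 for miR-9-3p. The 5p arm exceeded the 3p arm in all 6 libraries, by 2.06-fold to 4.18-fold.

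**Figure D2:**
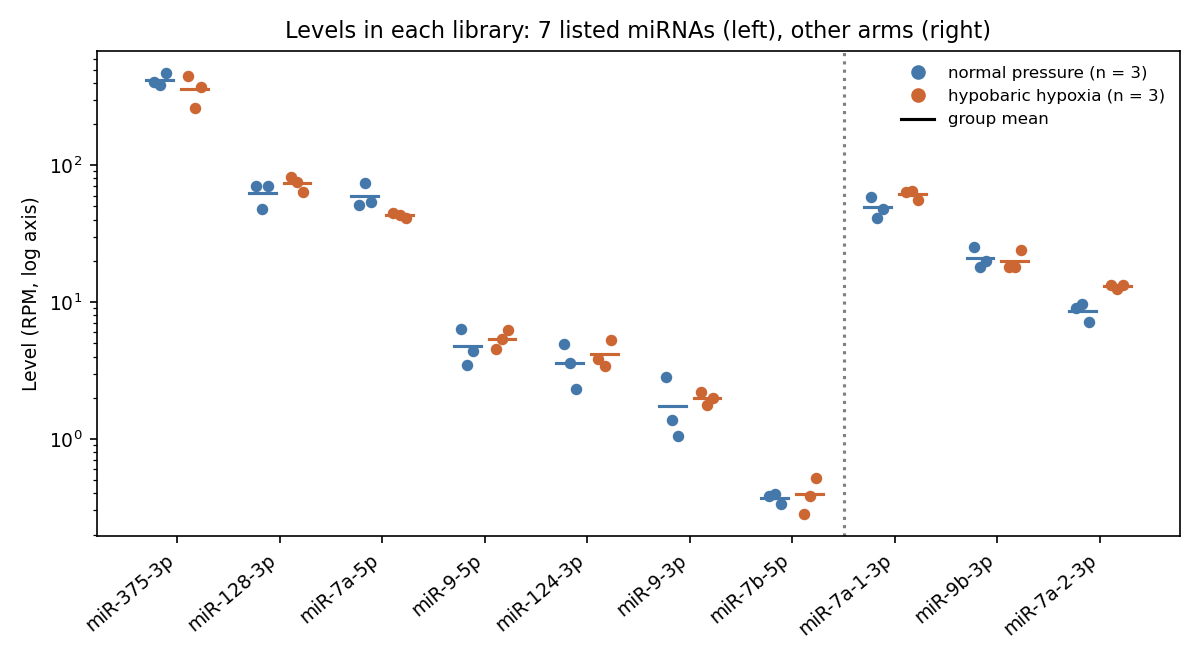
Level of each listed miRNA (left of the dotted line) and of the other tested arms of their precursors (right) in each of 3 normal-pressure and 3 hypobaric libraries, in RPM on a log axis; horizontal lines are group means. The groups are apart for miR-7a-5p (41.0 to 44.5 under hypobaric hypoxia, 51.1 to 73.7 at normal pressure) and for miR-7a-2-3p, and overlap for the others.

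In order of mean level, miR-375-3p lay above miR-128-3p in all 6 libraries with ranges apart, and miR-7a-5p lay above miR-9-5p in the same way. miR-128-3p and miR-7a-5p overlapped, with miR-128-3p higher in 5 of 6 libraries. miR-9-5p and miR-124-3p also overlapped, with miR-9-5p higher in 5 of 6. miR-124-3p was above miR-9-3p in each library, although their ranges overlapped, and miR-9-3p above miR-7b-5p with ranges apart. The spread over the 6 libraries was similar among members, with coefficients of variation from 17.4% for miR-128-3p to 33.3% for miR-9-3p.

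Of the 7 members, 6 were tested and none was called higher or lower by limma at an adjusted p of 0.05, against 4.84% of all 475 tested miRNAs. None had an unadjusted limma p under 0.05, against 20.2% of all tested. edgeR and DESeq2 also called 0 members, against 5.26% and 11.8% of all tested, and each had 1 member with an unadjusted p under 0.05, miR-7a-5p. Log2 changes were above 0 in 4 of the 6 members, against 65.7% of all tested. Their median was 0.18 beside 0.15 for all tested. Groups did not overlap, with the hypobaric libraries lower, in 1 of the 6, against 7.58% of all tested. With the hypobaric libraries higher it was 0 of the 6, against 19.2% of all tested. Relative to the median of all tested, the changes of miR-124-3p, miR-9-5p, miR-9-3p and miR-128-3p were between 0.02 and 0.09, and those of miR-375-3p and miR-7a-5p were -0.40 and -0.59. A p above the threshold does not show that levels were equal: the intervals of the 6 members allow log2 changes from -0.92 to 0.78.

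**Figure D3:**
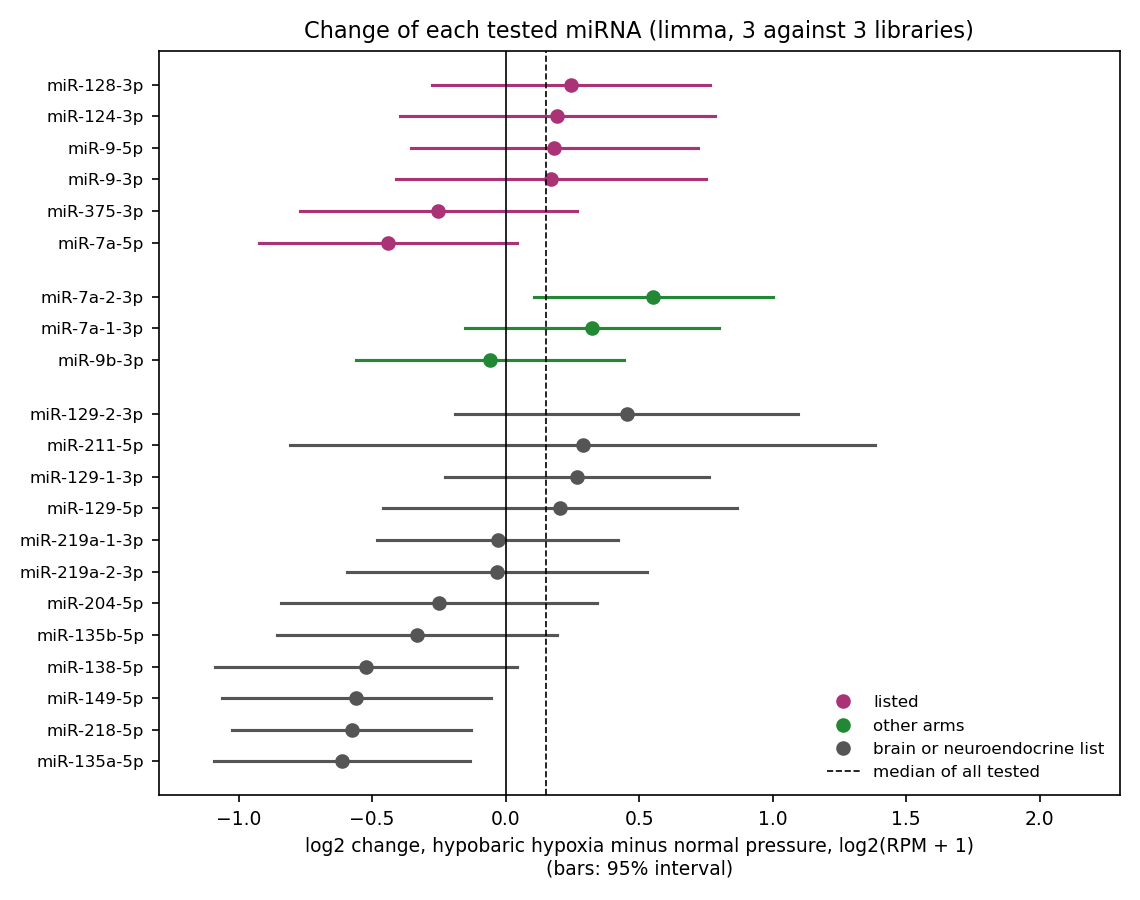
Log2 change of each tested miRNA, hypobaric hypoxia minus normal pressure on the log2(RPM + 1) scale, with its 95% interval from limma (3 against 3 libraries); the dashed line is the median of all tested (0.15). All 6 intervals of the listed miRNAs include 0, with miR-7a-5p lowest at -0.44, and miR-7a-2-3p lies on the other side at 0.55.

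The other arms of the members' precursors were examined because they report on the same hairpins. Those of miR-7a are printed because each belongs to 1 gene, and that of miR-9b for its match to miR-9-5p, with the seed again in capitals.
mmu-miR-7a-1-3p: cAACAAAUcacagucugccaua
mmu-miR-7a-2-3p: cAACAAGUcccagucugccaca
mmu-miR-9b-3p: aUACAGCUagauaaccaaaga
The miR-7a 3p strands differ at 3 of 22 bases (A7G, A10C and U21C, from the strand of the Hnrnpk intron to that of chromosome 7, counted from 1 at the 5′ end), the first of them inside the seed, so they have different seeds.

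The 3p strands of miR-7a together were about as abundant as the 5p strand at normal pressure, and their log2 changes were above 0 where that of the 5p strand was below 0; none of the 3 passed the test. miR-7a-1-3p, from the Hnrnpk intron, was at 58.4, 41.4 and 47.7 RPM at normal pressure and 63.8, 64.6 and 55.5 RPM in the hypobaric group, with a log2 change of 0.32 (SE 0.21, adjusted p = 0.394 by limma). miR-7a-2-3p, from chromosome 7, was at 9.05, 9.71 and 7.12 RPM and at 13.4, 12.4 and 13.2 RPM. Every hypobaric library of miR-7a-2-3p lay above every control, as in 19.2% of all tested miRNAs, while for miR-7a-1-3p normal-pressure library 1 lay above hypobaric library 3. The log2 change of miR-7a-2-3p was 0.55 ± 0.20 (SE), with a limma p of 0.0210 unadjusted and 0.149 adjusted. With scaling to the miRNA total the changes of the 3p strands were 0.12 for miR-7a-1-3p and 0.36 for miR-7a-2-3p.

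Within each library, both 3p strands together stood at 1.32, 0.694 and 1.02 times miR-7a-5p at normal pressure and at 1.74, 1.77 and 1.67 times under hypobaric hypoxia. In the hypobaric libraries the 3p strands were in excess throughout, and at normal pressure library 2 had more 5p strand. The ratio was 1.01 ± 0.313 and 1.73 ± 0.0481 (SD, n = 3), without overlap, and a two-sided exact permutation test yielded p = 0.1, the lowest attainable with 3 against 3 (0.225 adjusted over the 9 ratios and sums compared). This ratio does not depend on how libraries are scaled. It was examined after the values of the arms had been seen. The difference of 0.716 was 0.558 without normal-pressure library 2 and 0.584 without the pair set apart on the second component. The 3 strands summed to 117 ± 8.15 RPM at normal pressure and 117 ± 6.62 RPM in the hypobaric group (SD, n = 3). Unlike the ratio, this sum depends on scaling, so it does not show a constant total. Reads assigned to miRNAs were 30.4% to 36.3% of the library total at normal pressure and 38.0% to 41.1% in the hypobaric group.

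The same 3p to 5p ratio can be formed for 119 pairs of arms in which both were tested and above 0 in every library. It was higher in all hypobaric libraries in 11.8% of these pairs, among them both pairs of miR-7a, which share miR-7a-5p. This share covers the higher direction alone, the one already seen for miR-7a. Other pairs, such as those of miR-191 and miR-100, were lower in all hypobaric libraries. By the size of the mean log2 difference, miR-7a-2-3p against miR-7a-5p was 8th and miR-7a-1-3p against miR-7a-5p 15th of 119, at 1.06 and 0.78. The miR-9 pair was 105th, at 0.08. The balance of the miR-7a 3p strands from the separate genes was 4.27 to 6.70 parts of miR-7a-1-3p to 1 of miR-7a-2-3p at normal pressure and 4.20 to 5.20 to 1 under hypobaric hypoxia, with overlap (exact permutation p = 0.3, two-sided, 0.45 adjusted). miR-7b-3p had 1 read in each control and 2 or 3 reads in each hypobaric library, at or under the 3 reads taken as the limit of detection.

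**Figure D4:**
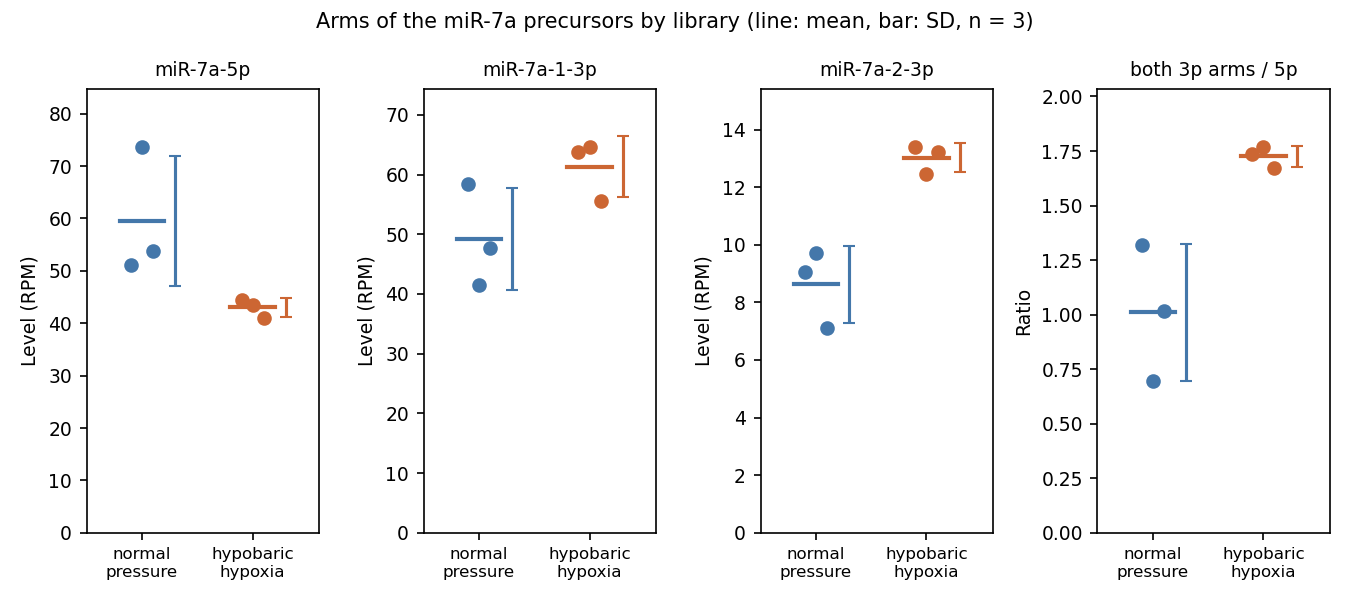
Levels of miR-7a-5p, miR-7a-1-3p and miR-7a-2-3p (RPM) and the ratio of both 3p strands to the 5p strand in 3 normal-pressure and 3 hypobaric libraries; points are libraries, horizontal lines are means and bars are SD. The ratio is 1.67 to 1.77 in the hypobaric libraries and 0.694 to 1.32 in the controls.

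miR-9b-3p, annotated on the strand opposite to the miR-9 precursors, was more abundant than miR-9 itself. It was at 25.1, 17.9 and 20.0 RPM at normal pressure and at 18.0, 18.1 and 24.2 RPM in the hypobaric group, 3.36 to 5.18 times miR-9-5p in the same library. Its 21 bases are the exact reverse complement of bases 1 to 21 of miR-9-5p, so its reads can be told from those of miR-9-5p only by strand. Strand handling in the counting was not given in the sources used here, and with strand ignored the split between these names would be uncertain. The level of miR-9b-3p had a log2 change of -0.06 (SE 0.22, adjusted p = 0.876 by limma). Its ratio to miR-9-5p was lower in every hypobaric library, 4.56 ± 0.612 at normal pressure against 3.72 ± 0.313 (SD, n = 3). The two-sided exact permutation p was 0.1, the lowest attainable with 3 against 3, and 0.225 adjusted. On their own, miR-9b-3p and miR-9-5p each overlapped between groups, and no share over other miRNAs was formed for this ratio.

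Of 28 other miRNAs listed for brain or neuroendocrine tissue, 24 were analysed and 13 were tested, miR-9b-3p among them. None of the 13 was called by limma, against 4.84% of all tested, and 3 were under 0.05 before adjustment, against 20.2%. edgeR called 2 and DESeq2 3, against 5.26% and 11.8% of all tested. Log2 changes were below 0 in 9 of the 13, with a median of -0.06, or -0.21 relative to all tested. Groups did not overlap, with hypobaric lower, in 4 of the 13, against 7.58% of all tested. With hypobaric higher it was 0 of the 13, against 19.2% of all tested. The highest of the list by mean level were miR-204-5p, of retinal pigment epithelium and choroid plexus, miR-149-5p and miR-218-5p, of motor neurons. miR-204-5p was at 2818, 2603 and 2981 RPM at normal pressure and 3093, 1485 and 2829 RPM in the hypobaric group, with hypobaric library 2 far below the rest (log2 change -0.25, limma adjusted p = 0.613).

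miR-218-5p was at 1071, 778 and 848 RPM at normal pressure and 698, 512 and 596 RPM in the hypobaric group, without overlap. Its log2 change was -0.58 (SE 0.20, adjusted p = 0.145 by limma). It was called with scaling to the miRNA total (adjusted p = 0.0251), edgeR (0.0461) and DESeq2 (0.00296). miR-149-5p was at 819, 1376 and 995 RPM and at 794, 610 and 723 RPM, also without overlap, with a log2 change of -0.56 (SE 0.22, adjusted p = 0.202 by limma). DESeq2 called it (adjusted p = 0.0366). The log2 change of miR-149-5p was -0.36 without normal-pressure library 2, its highest, and -0.38 without the pair set apart on the second component. The others without overlap, named after their values were seen, were miR-135a-5p (297 ± 17.8 and 197 ± 46.2 RPM, SD, n = 3, limma adjusted p = 0.146) and miR-138-5p (164 ± 23.1 and 116 ± 31.0 RPM, SD, n = 3, 0.280). Without hypobaric library 2 the log2 change of miR-138-5p went from -0.52 to -0.29. miR-135a-5p was called with scaling to the miRNA total (adjusted p = 0.0387), median-of-ratios scaling (0.0498), edgeR (0.0499) and DESeq2 (0.00153). The 11 members of this list below the filter reached at most 2.07 RPM in any library.

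For each tested member, the tested annotated miRNA whose log2 level followed it most closely over the 6 libraries was named by Pearson correlation, out of 447 compared. These correlations are descriptions over 6 libraries that share their groups and depth, and the highest of many is high by selection. miR-7a-5p was followed most closely by miR-149-5p (r = 0.94) and miR-190b-5p (0.93), and miR-375-3p by miR-204-5p (0.95) and miR-27a-5p (0.89). miR-128-3p was followed by miR-31-3p and miR-152-3p (both r = 0.98). miR-9-5p was followed by miR-384-5p (r = 0.93) and miR-224-5p (0.90), miR-9-3p by miR-192-5p (0.92) and miR-380-3p (0.88), and miR-124-3p by miR-467e-5p (0.82) and miR-9-3p (0.81). Among the members themselves, the 3 low ones went together (r = 0.63 for miR-124-3p with miR-9-5p and 0.68 between the miR-9 arms), while miR-7a-5p ran against miR-128-3p (r = -0.77) and miR-9-5p (-0.76).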

How the data were processed

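Per the labels' protocols, 1.3 µg of total RNA entered each library, after selection of small RNA on a gel, and sequencing was single-end over 50 bases. Bowtie2, DESeq2 and GRCm38.p6 appear in the submitters' processing notes, without role or tool version. The deposited values, named TPM by the authors, are RPM, reads per 1000000 reads of a library total: 100% of each library's values came out as whole reads of 1 implied total, within 0.0005 RPM. On these reads edgeR called 25 and DESeq2 56 of 475 miRNAs. The assignment of reads that match several miRNAs was not given in the sources used here. Mean levels of miR-199a-3p were 31.0 RPM at normal pressure and 2632 RPM in the hypobaric group, and those of miR-199b-3p were 2006 and 21.6 RPM. Both are among the miRNAs called by limma. Whether reads moved between these names was not tested.

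For the comparison, limma 3.58.1 (R 4.3.3) was run on log2(RPM + 1) with a variance trend, two-sided, and p-values were adjusted by Benjamini-Hochberg across the 475 miRNAs whose mean reached 1 RPM. Fold changes on this scale understate changes of low miRNAs. Alternatives used edgeR 4.0.16, DESeq2 1.42.0, other scalings, filters and pseudocounts, each library left out and the replicate number as a block. The fits were run on simulated data with larger changes than those of the members. This does not show that changes of the members' size would be found. Replicate numbers in the titles were not taken as pairs, although the descriptions give same-numbered libraries the same days of exposure. Ratios were compared with exact permutation tests (scipy 1.17.1). The values are reads, with no molecular identifiers named, and not independent molecules, so limits from read counts cover counting error only. Named miRNAs were the members and the other arms of their precursors. From a fixed brain or neuroendocrine list they were the miRNAs called and the 3 highest. Also named were 3 reference miRNAs and the 2 closest followers of each member. Of the reference miRNAs, miR-451a entered only the red-cell marker list, and miR-210-3p bears on no result here. Members and lists were chosen with earlier results of these data known.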

Additional observations from a re-analysis of the deposited data

How the results depend on the processing

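The count of members called was 0 under all 17 alternatives. Of the members, miR-7a-5p and miR-375-3p kept a negative and miR-128-3p a positive log2 change under these alternatives, but their sizes moved: miR-7a-5p from -0.67 to -0.25 (adjusted p from 0.0516 to 0.554), miR-375-3p from -0.46 to -0.04 and miR-128-3p from 0.04 to 0.35. Changes of sign, none of them called, were found for miR-124-3p without normal-pressure library 3 (-0.0251), miR-9-5p with quantile scaling (-0.0169) and without normal-pressure library 2 and hypobaric library 3 (-0.0797), and miR-9-3p with edgeR (-9e-04) and without normal-pressure library 3 (-0.0132). They were also found for miR-9b-3p (0.069, 0.0092 and 0.0057 without normal-pressure library 1, hypobaric library 1 or hypobaric library 2) and miR-204-5p without hypobaric library 2 (0.0809). At the other end, log2 changes reached 0.3931 for miR-124-3p, 0.3739 for miR-9-5p and 0.4313 for miR-9-3p without normal-pressure library 1, -0.2964 for miR-9b-3p without normal-pressure library 2 and hypobaric library 3, and -0.4574 for miR-204-5p with scaling to the miRNA total (-0.4482 without hypobaric library 1). For members with an unadjusted p under 0.05 the count was 1 with scaling to the miRNA total, median-of-ratios, quantile scaling, edgeR and DESeq2. In the brain or neuroendocrine list 2 were called with scaling to the miRNA total and edgeR, 1 with median-of-ratios and 3 with DESeq2. Over all tested miRNAs, 15 were higher and 8 lower. DESeq2 gave 29 and 27, edgeR 14 lower, scaling to the miRNA total 19 lower, median-of-ratios and quantile scaling 14 lower each, and leaving out the pair set apart on the second component, chosen after seeing the data, 34 and 13. With 1 library left out, higher calls ranged from 5 to 25 and lower calls from 4 to 9. The cause was not tested. Scaling moved the median log2 change of all tested from 0.15 to between -0.02 and 0.03. The ratio of miR-7a strands differed by 0.558 to 0.870 with 1 library left out, an alternative added after seeing the data. The replicate block gave 0 members called and 15 and 8 calls in all and changed no call of a member. Same-numbered libraries had correlations of deviations of 0.35, -0.47 and -0.29, and not every library correlated best with its own number. The numbers were not taken as pairs, but deviations from means of 3 libraries cannot exclude pairing. With 6 to 11 reads for miR-7b-5p and 22 to 59 for miR-9-3p, depth limits both.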

Other observations

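In the brain or neuroendocrine list, miR-211-5p, named after its values were seen, was at 29.6 RPM in hypobaric library 3 and between 6.10 and 11.3 RPM in the other 5 libraries, and its log2 change was 0.29 (SE 0.48, adjusted p = 0.749 by limma).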
